A study of Mus musculus with 8 samples.

Results

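Mouse embryonic fibroblasts (MEFs) were kept for 4 days in a medium with 5 small molecules, called CFAE+8, and their transcriptome was set against that of MEFs kept for the same 4 days in MEF medium. The CFAE part of the cocktail combined CHIR99021, a GSK-3 inhibitor, Forskolin, which switches on adenylyl cyclases, AM580, which activates the retinoic acid receptor RARα, and EPZ04777, as the labels spell a compound known as an inhibitor of the histone methyltransferase DOT1L. The 8 stood for A-83-01, an inhibitor of type I receptors of the TGF-β family. The comparison took the columns of raw counts labelled CFAE+8 and MEF, 2 libraries each and so 4 of the 8 libraries of the study. The other 4 libraries, 2 each, came from MEFs kept for 4 days in CFAE+8+MSC, which added the CDK8 and CDK19 inhibitor MSC2530818, and in CFAE+6, in which E-616452, a further type I TGF-β receptor inhibitor, stood in place of A-83-01. All cells were wild type and their tissue was given as embryo, with no selection for a cell type. The labels gave no doses and did not say whether both libraries of a group were made from different cultures, so the p-values measure the spread between these samples alone, part or all of which may be technical.

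Expression is given as CPM (counts divided by library size and set to a common total), with library sizes adjusted by the trimmed mean of M values (TMM), in library 1 and then library 2 of each group. A log2 change is CFAE+8 minus MEF from edgeR's quasi-likelihood fit, with its standard error (SE), and a gene was said to rise or fall where its Benjamini-Hochberg adjusted p over all tested genes was below 0.05. Where a group held no count of a gene, the change is given as a bound, from 3 counts over both libraries of that group, and where it held 1 to 3 counts, as a ratio with its exact 95% counting interval. The library kit named in the labels' protocols does not mark strand. A gene printed with an exon overlap shared that part of its exon length with another gene, so its value was uncertain.

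The 4 libraries held 11269919 and 11336985 counts for CFAE+8, against 11355164 and 11913143 counts for MEF, and 3 counts corresponded to between 0.254 and 0.285 CPM. Of the 54532 genes in the table, 15470 passed the filter on low counts. The first principal component over all 8 libraries took 76.3% of the variance and separated the 3 cocktails from MEF, and the second took 11.4% and separated CFAE+8 from the other 2 cocktails. Mitochondrially encoded genes took 1.96% and 2.00% of the counts in CFAE+8, against 1.24% and 1.21% in MEF. The 20 most abundant genes of each library took 6.72% and 6.73% in CFAE+8, against 10.3% and 10.5% in MEF. Fibroblast markers were detected in both groups, at summed levels of 27510 and 27480 CPM in CFAE+8, against 59000 and 60970 CPM in MEF.

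The pathways that these compounds are known to act on meet in mesenchymal cells. Inhibition of GSK-3 stabilises β-catenin, which with TCF and LEF proteins switches on Wnt target genes, many of which are feedback inhibitors. Cyclic AMP activates protein kinase A, which phosphorylates the transcription factor CREB, and retinoic acid receptors bind response elements in genes that transport or destroy retinoids. TGF-β receptors signal through SMAD proteins and, in fibroblasts, are best known for driving collagen, crosslinking enzymes and smooth muscle actin, partly together with the actin-regulated factors SRF and its cofactors and with YAP and TEAD.

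Promoter windows from RefSeq (GRCm38.p6, the mm10 assembly) were searched on both strands for 1 motif per pathway. The windows below show, for each motif, the called list member with the largest fitted log2 change whose window held it. Cyp26a1 had no count in MEF, so its fitted change has no firm size, and Rarb, whose window also held its motif, may have changed more. Each window runs 5′ to 3′ on the gene's strand from 250 bases before to 50 bases after the annotated start, and capitals mark the motif. The Sp5 window, chr2:70474673-70474972 on the plus strand, held the TCF/LEF letters ATCAAAG on the opposite strand, 104 bases before the start. The Cyp26a1 window, chr19:37697558-37697857 on the plus strand, held a retinoic acid response element of the DR5 type at 32 bases before the start. The Sst window, chr16:23890795-23891094 on the minus strand, held the cyclic AMP response element TGACGTCA at 48 bases. The Myl9 window, chr2:156775214-156775513 on the plus strand, held a CArG box, the SRF site, at 161 bases. The Ankrd1 window, chr19:36119795-36120094 on the minus strand, held the TEAD letters CATTCC on the opposite strand at 210 and at 123 bases, and the Hmgcs1 window, chr13:119690101-119690400 on the plus strand, held the sterol element TCACNCCAC at 137 bases.
Sp5: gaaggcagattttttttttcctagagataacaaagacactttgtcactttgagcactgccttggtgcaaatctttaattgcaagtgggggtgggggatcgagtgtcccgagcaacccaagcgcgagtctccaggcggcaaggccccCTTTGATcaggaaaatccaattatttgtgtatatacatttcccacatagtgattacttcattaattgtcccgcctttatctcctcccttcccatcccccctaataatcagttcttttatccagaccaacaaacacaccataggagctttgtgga
Cyp26a1: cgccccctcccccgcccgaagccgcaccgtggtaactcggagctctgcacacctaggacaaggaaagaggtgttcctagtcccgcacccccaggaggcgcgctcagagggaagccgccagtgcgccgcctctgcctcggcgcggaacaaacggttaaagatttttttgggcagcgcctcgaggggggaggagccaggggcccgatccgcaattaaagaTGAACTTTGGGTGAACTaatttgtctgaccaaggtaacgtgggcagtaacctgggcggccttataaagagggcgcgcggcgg
Sst: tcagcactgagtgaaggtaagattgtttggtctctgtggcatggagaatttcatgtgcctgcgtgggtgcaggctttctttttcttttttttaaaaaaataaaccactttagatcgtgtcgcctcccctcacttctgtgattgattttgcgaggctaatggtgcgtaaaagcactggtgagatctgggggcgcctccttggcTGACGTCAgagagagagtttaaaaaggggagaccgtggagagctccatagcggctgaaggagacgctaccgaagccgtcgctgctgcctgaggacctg
Myl9: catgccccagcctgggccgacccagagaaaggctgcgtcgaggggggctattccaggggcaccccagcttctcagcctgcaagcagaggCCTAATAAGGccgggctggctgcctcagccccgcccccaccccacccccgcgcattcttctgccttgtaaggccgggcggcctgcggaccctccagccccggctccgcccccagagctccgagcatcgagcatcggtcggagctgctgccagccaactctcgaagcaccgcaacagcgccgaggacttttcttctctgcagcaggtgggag
Ankrd1: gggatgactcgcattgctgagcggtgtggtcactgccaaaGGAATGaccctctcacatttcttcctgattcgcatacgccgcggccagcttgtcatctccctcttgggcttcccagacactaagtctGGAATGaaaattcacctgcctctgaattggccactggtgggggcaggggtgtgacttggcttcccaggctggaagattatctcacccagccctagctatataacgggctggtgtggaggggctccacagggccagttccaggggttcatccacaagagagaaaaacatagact
Hmgcs1: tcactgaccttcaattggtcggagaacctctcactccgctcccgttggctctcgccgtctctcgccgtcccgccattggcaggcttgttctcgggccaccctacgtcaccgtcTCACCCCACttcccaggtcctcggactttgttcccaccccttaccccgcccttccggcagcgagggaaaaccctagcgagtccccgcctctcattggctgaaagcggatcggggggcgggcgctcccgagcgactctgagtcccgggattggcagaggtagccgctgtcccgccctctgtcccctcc

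Windows were available for 11188 of the 15470 tested genes, 14273 windows in all, since a gene can have several starts. The TCF/LEF letters stood in 2.49% of all windows and in 3 of the 22 windows of Wnt feedback and target genes, those of Sp5, Wnt11 and Tnfrsf19. They stood in 2.38% of the windows of genes higher by log2 1 or more and in 2.04% of those lower, so they were not more frequent among changed genes. The DR5 element stood in 6 windows of all 14273, those of Blvrb, Cyp26a1, Ppbp, Prokr2, Rarb and Syndig1 (exon overlap 11.8%), genes named because their windows held the element. Of these genes, 5 rose and Ppbp, a platelet chemokine, fell, although Blvrb missed the threshold without CFAE+8 library 2 (adjusted p = 0.0657) or MEF library 1 (0.125). Of the 40 windows of the retinoid lists, 2 held the element, those of Cyp26a1, which destroys retinoic acid, and Rarb, a retinoic acid receptor. The cyclic AMP response element stood in 2.96% of all windows and in 4 of the 28 of the CREB targets. These were the windows of Areg and Sst, which rose, and of Btg2 and Dusp1, which fell. The CArG box stood in 1.39% of all windows and in 2 of the 17 of smooth muscle contractile genes. The TEAD letters stood in 12.3% of all windows and in 16 of the 36 of the SRF, YAP and TEAD targets, and the sterol element in 1.16% of all windows and in 1 of the 18 of the cholesterol synthesis genes. In the 6 windows shown, no match overlapped a match of another of these motifs, and a match describes letters in a window, with no measurement of binding.

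Of the genes tested, 9597 passed the threshold, 62.0% of all. In CFAE+8, 4762 genes (30.8%) were higher and 4835 (31.3%) were lower than in MEF. By log2 1 or more, 1757 genes (11.4%) were higher and 2093 (13.5%) were lower, and the median log2 change of all tested genes was 0.01. These shares are the background for the gene lists below.

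Among the largest rises were genes of vesicle release, neuropeptides and axon growth, which lay close to the counting floor in MEF. Syt6, a synaptotagmin, had 22.9 and 22.7 CPM in CFAE+8, against 0.095 and 0 CPM in MEF, and with 1 count in MEF the ratio was 489 (95% counting interval 87.4 to 19350). Trpm1, a cation channel known from retinal bipolar cells, had 35.5 and 41.9 CPM in CFAE+8, against 0.095 and 0.0916 CPM in MEF, a ratio of 415 (95% counting interval 115 to 3432). Calca, which encodes calcitonin and the neuropeptide CGRP, had 24.7 and 26.5 CPM in CFAE+8, against 0.095 and 0.183 CPM in MEF, a ratio of 183 (95% counting interval 62.2 to 889). In each of these genes the MEF level rested on 3 counts or fewer. Ptpn5, a neuronal tyrosine phosphatase, had 99.6 and 100.1 CPM in CFAE+8, against 0.19 and 0.733 CPM in MEF (log2 change 7.71 ± 0.17, adjusted p = 1.9e-25). Draxin, a secreted axon guidance protein, had 302 and 279 CPM in CFAE+8, against 1.52 and 2.66 CPM in MEF (log2 change 7.11 ± 0.11, adjusted p = 6.5e-29). Both were above 90 CPM in both CFAE+8 libraries and below 3 CPM in both MEF libraries. Tmem132c, a membrane protein of little-known function, had 604 and 594 CPM in CFAE+8, against 1.81 and 2.84 CPM in MEF (log2 change 8.00 ± 0.094, adjusted p = 5.3e-32). Fam84a had 403 and 398 CPM in CFAE+8, against 2.76 and 3.02 CPM in MEF (log2 change 7.11 ± 0.086, adjusted p = 9.5e-32).

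**Figure D1:**
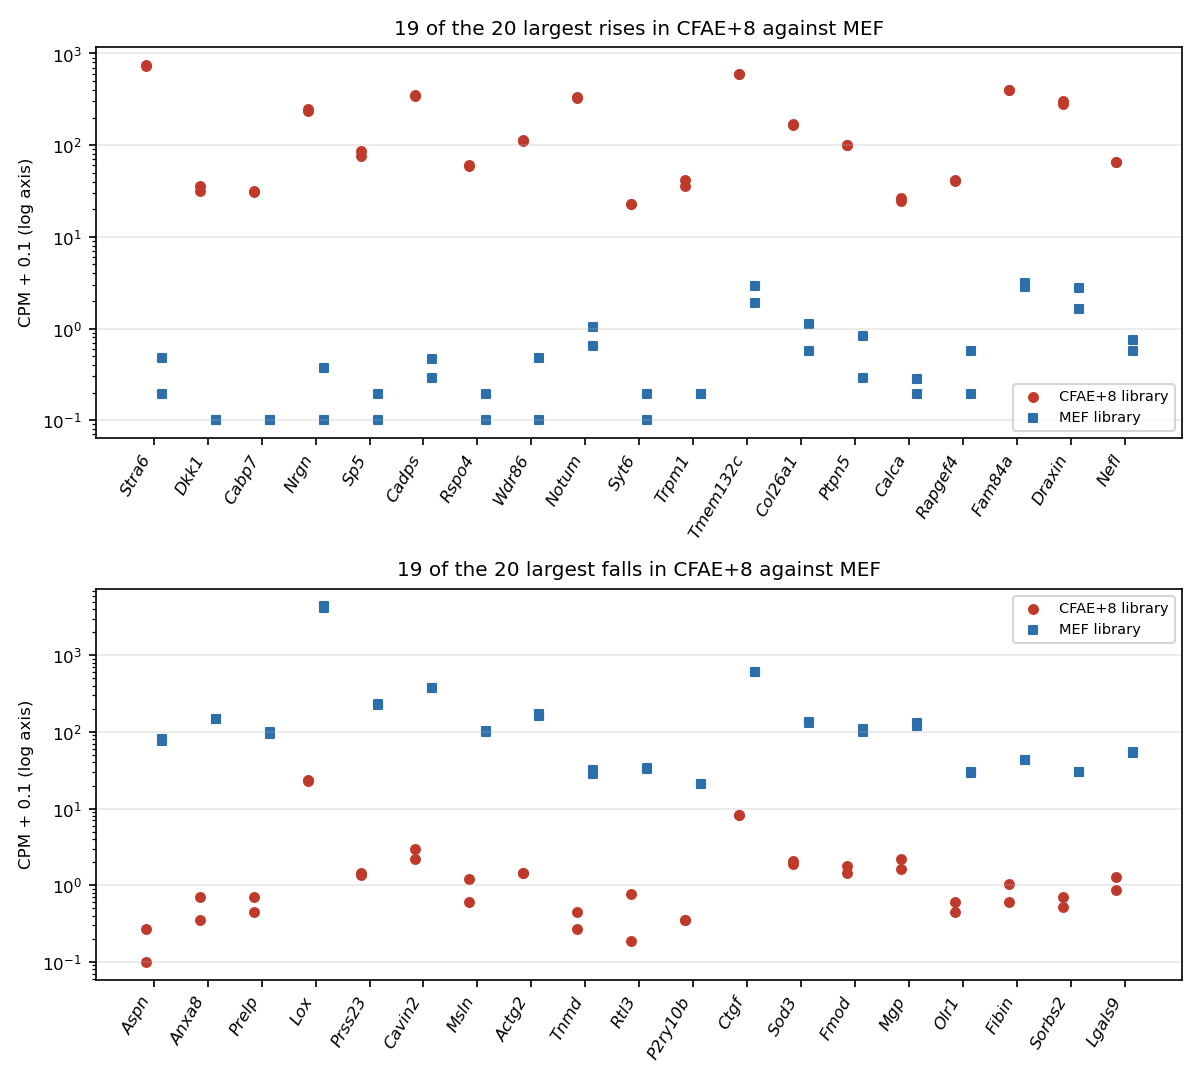
CPM plus 0.1 on a log axis for 19 of the 20 largest rises (upper panel) and 19 of the 20 largest falls (lower panel) among protein-coding genes with at least 20 CPM in 1 group, with 1 point per library, CFAE+8 as red circles to the left of MEF as blue squares. The 2 groups lie apart in every column, as the rule that chose these genes required. Tmem132c had 604 and 594 CPM in CFAE+8, against 1.81 and 2.84 CPM in MEF.

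Among the largest falls were matrix and membrane proteins of tendon, cartilage and mesothelium. Tnmd, tenomodulin, a marker of tendon cells, had 0.341 and 0.17 CPM in CFAE+8, against 28.3 and 31.6 CPM in MEF (log2 change -6.81 ± 0.30, adjusted p = 3.6e-18). Mgp (matrix Gla protein, ENSMUSG00000030218, chr6:136872435-136875823), an inhibitor of calcification, had 1.54 and 2.12 CPM in CFAE+8, against 132 and 119.9 CPM in MEF (log2 change -6.10 ± 0.14, adjusted p = 3.7e-25). Fibin, a secreted protein first described in fin development, had 0.512 and 0.933 CPM in CFAE+8, against 42.8 and 42.7 CPM in MEF (log2 change -5.86 ± 0.23). Each was below 3 CPM in both CFAE+8 libraries and above 20 CPM in both MEF libraries. Sod3, the extracellular superoxide dismutase, had 1.79 and 1.95 CPM in CFAE+8, against 137 and 131 CPM in MEF (log2 change -6.15 ± 0.14, adjusted p = 4.3e-25). Lgals9, the lectin galectin-9, had 1.195 and 0.763 CPM in CFAE+8, against 53.7 and 55.3 CPM in MEF (log2 change -5.78 ± 0.20). Olr1, a receptor for oxidised LDL, had 0.341 and 0.509 CPM in CFAE+8, against 29.6 and 28.9 CPM in MEF (log2 change -6.07 ± 0.27). The rule for the largest changes required that the groups did not overlap. The 2 libraries of MEF stood close together for these genes. Sorbs2, an adaptor of actin-based adhesions, had 0.598 and 0.424 CPM in CFAE+8, against 29.6 and 29.7 CPM in MEF (log2 change -5.83 ± 0.25). Msln, the mesothelial surface protein mesothelin, had 1.11 and 0.509 CPM in CFAE+8, against 98.5 and 104 CPM in MEF (log2 change -6.95 ± 0.19, adjusted p = 1.6e-23).

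Mesothelial markers moved with the largest falls. Of 24 tested, 17 fell and 2 rose (1 when any library of CFAE+8 or MEF was left out), and Upk3b and Lrrn4 had no count in CFAE+8. Their summed level was 1405 and 1393 CPM in CFAE+8, against 1357 and 1337 CPM in MEF, most of it from Cpe, a peptide-processing enzyme of many cell types that rose. The part of mesothelial cells in the largest falls was not tested. In bulk RNA, fewer cells of a type and less RNA per cell cannot be told apart.

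Among the genes of the proteins that the compounds bind or activate, 6 of the 14 tested members rose, 5 fell and 3 did not pass, with a median log2 change of 0.01. Gsk3b, a target of CHIR99021, had 172 and 162 CPM in CFAE+8 and 159 and 159.5 CPM in MEF and did not pass (log2 change 0.07 ± 0.056, adjusted p = 0.28). The adenylyl cyclases, which Forskolin activates, moved both ways. Adcy1, a calcium-stimulated form, rose to 88.8 and 86.4 CPM in CFAE+8, against 10.9 and 10.8 CPM in MEF (log2 change 3.01 ± 0.087, adjusted p = 1.4e-22). Adcy2 rose to 31.7 and 27.6 CPM in CFAE+8, against 17.7 and 15.5 CPM in MEF (log2 change 0.84 ± 0.11). Adcy4 fell to 4.01 and 3.22 CPM in CFAE+8, against 14.2 and 16.1 CPM in MEF (log2 change -2.06 ± 0.26). Adcy1 showed the largest of these changes. No cyclase named here overlapped between the groups, but each was named as a called change. Rara, the receptor that AM580 activates, fell to 41.1 and 41.3 CPM in CFAE+8, against 62.8 and 66.9 CPM in MEF (log2 change -0.65 ± 0.085). Dot1l rose to 154 and 144 CPM in CFAE+8, against 104 and 105 CPM in MEF (log2 change 0.51 ± 0.058). Transcript level does not measure the activity of these proteins.

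Most Wnt feedback and target genes rose. In this list, 17 of the 23 tested members rose and 4 fell, 17 and 3 of them by log2 1 or more, with a median log2 change of 1.85. Tnfrsf19 (ENSMUSG00000060548, chr14:60963875-61046490), a TNF receptor family member and Wnt target, had 267 and 264 CPM in CFAE+8, against 2.66 and 2.02 CPM in MEF (log2 change 6.82 ± 0.097, adjusted p = 3.6e-30). Msx1, a homeobox factor of limb and craniofacial mesenchyme, had 202 and 203 CPM in CFAE+8, against 2.85 and 1.92 CPM in MEF (log2 change 6.40 ± 0.11, adjusted p = 1.8e-28). Lef1 (exon overlap 13.7%), a partner of β-catenin, had 92.4 and 95.4 CPM in CFAE+8, against 1.43 and 1.01 CPM in MEF (log2 change 6.26 ± 0.14, adjusted p = 1.2e-25). Each was below 3 CPM in both MEF libraries and above 90 CPM in both CFAE+8 libraries. At the other end of the list, Lgr5, an R-spondin receptor and Wnt target named after its values were seen, fell to 5.38 and 6.62 CPM in CFAE+8, against 77.3 and 80.1 CPM in MEF (log2 change -3.71 ± 0.12, adjusted p = 1.4e-21). Nkd2 and Ephb2 changed by less. Nkd2, an inhibitor of Dishevelled, rose to 88.2 and 82.8 CPM in CFAE+8, against 39.3 and 41.1 CPM in MEF (log2 change 1.09 ± 0.072). Ephb2, an ephrin receptor, fell to 54.9 and 53.9 CPM in CFAE+8, against 79.5 and 80.9 CPM in MEF (log2 change -0.56 ± 0.077).

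The ligands changed in both directions. Of 15 tested Wnt and R-spondin genes, 9 rose and 5 fell. Rspo4, an R-spondin, which amplifies Wnt signals, had 58.98 and 60.6 CPM in CFAE+8, against 0.095 and 0 CPM in MEF, a ratio of 1282 (95% counting interval 229.8 to 50690). Rspo2, another R-spondin, fell to 1.45 and 1.19 CPM in CFAE+8, against 28.2 and 27.9 CPM in MEF (log2 change -4.40 ± 0.23, adjusted p = 4.3e-16). These 2 R-spondins thus lay at opposite ends of the list. Wnt7b had 6.74 and 5.94 CPM in CFAE+8, against 0.095 and 0.0916 CPM in MEF, a ratio of 67.95 (95% counting interval 18.5 to 566). Wnt2 rose to 12.97 and 13.8 CPM in CFAE+8, against 2.28 and 3.76 CPM in MEF (log2 change 2.14 ± 0.19). Wnt9a fell to 5.805 and 4.07 CPM in CFAE+8, against 22.9 and 23.5 CPM in MEF (log2 change -2.23 ± 0.18). Both libraries of CFAE+8 were on 1 side of both libraries of MEF for each of these ligands, which were named for their called changes. Wnt16 fell to 2.39 and 3.73 CPM in CFAE+8, against 13.4 and 13.7 CPM in MEF (log2 change -2.14 ± 0.20). Wnt5a, a ligand of β-catenin-independent signalling with the highest CPM of the list, rose to 229 and 223 CPM in CFAE+8, against 169 and 174 CPM in MEF (log2 change 0.40 ± 0.053).

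Among the Wnt receptors, 8 of the 19 tested members rose, 10 fell and 1 did not pass, with a median log2 change of -0.29. Fzd10, a frizzled receptor, rose to 42.2 and 42.1 CPM in CFAE+8, against 0.76 and 0.916 CPM in MEF (log2 change 5.63 ± 0.18, adjusted p = 7.5e-22). Lgr6, an R-spondin receptor, rose to 85.3 and 83.1 CPM in CFAE+8, against 5.797 and 5.59 CPM in MEF (log2 change 3.88 ± 0.11, adjusted p = 3.4e-23). The frizzled receptor Fzd4 fell to 3.07 and 2.38 CPM in CFAE+8, against 15.8 and 15.7 CPM in MEF (log2 change -2.52 ± 0.22). The direction therefore differed between frizzled genes. Ror1, a receptor of β-catenin-independent signalling, rose to 72.05 and 68.8 CPM in CFAE+8, against 13.02 and 13.3 CPM in MEF (log2 change 2.42 ± 0.092). Ror2, of the same family, rose to 183 and 180.5 CPM in CFAE+8, against 52.5 and 52.1 CPM in MEF (log2 change 1.80 ± 0.060). The coreceptor Lrp5 fell to 88.8 and 86.3 CPM in CFAE+8, against 119.7 and 124 CPM in MEF (log2 change -0.48 ± 0.062). Of 9 tested secreted antagonists, 5 rose and 4 fell, again with members at both ends. Wif1, which binds Wnt proteins, rose to 83.4 and 86.9 CPM in CFAE+8, against 0.95 and 0.641 CPM in MEF (log2 change 6.73 ± 0.15, adjusted p = 2.5e-25). Sfrp4, a frizzled-related decoy, fell to 1.02 and 1.44 CPM in CFAE+8, against 32.1 and 31.7 CPM in MEF (log2 change -4.68 ± 0.22, adjusted p = 1.6e-17). Sfrp1, a decoy too, fell to 38.2 and 34.5 CPM in CFAE+8, against 159 and 176 CPM in MEF (log2 change -2.21 ± 0.073).

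Genes that carry retinoids mostly rose. In this list, 5 of the 7 tested members rose, 1 fell and 1 did not pass, with a median log2 change of 1.03, or 0.94 with genes absent from MEF at their bound. Crabp1 (ENSMUSG00000032291, chr9:54764748-54773110), which binds retinoic acid in the cytoplasm, rose to 1797 and 1750 CPM in CFAE+8, against 791 and 729.5 CPM in MEF (log2 change 1.22 ± 0.039, adjusted p = 1.6e-21). Per length, Crabp1 stood at 2211 RPKM (CPM per kilobase of exon) in CFAE+8, against 948 RPKM in MEF. Crabp2, the second cellular carrier of retinoic acid, rose to 49.5 and 54.5 CPM in CFAE+8, against 37.2 and 35.2 CPM in MEF (log2 change 0.52 ± 0.086). Fabp5, a fatty acid carrier that also binds retinoic acid, fell to 35.1 and 38.2 CPM in CFAE+8, against 63.3 and 54.4 CPM in MEF (log2 change -0.68 ± 0.085).

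Of 14 tested genes of retinoic acid synthesis and breakdown, 4 rose and 4 fell. Both counts lay near the shares of all tested genes, 30.8% higher and 31.3% lower. Cyp26a1, whose promoter window with the DR5 element is printed above, had 1.54 and 1.87 CPM in CFAE+8, against 0 and 0 CPM in MEF, at least 12.2-fold higher in CFAE+8. Dhrs9, a retinol-oxidising enzyme, fell to 2.05 and 2.71 CPM in CFAE+8, against 25.5 and 28.6 CPM in MEF (log2 change -3.50 ± 0.20, adjusted p = 3e-15). Adh1, an alcohol dehydrogenase that oxidises retinol, fell to 1.02 and 0.763 CPM in CFAE+8, against 5.32 and 4.86 CPM in MEF (log2 change -2.49 ± 0.36). Both of these enzymes were thus lower, but a further retinol-oxidising enzyme was not. Rdh10 had 25.9 and 27.5 CPM in CFAE+8 and 25.6 and 28.2 CPM in MEF, where the groups overlapped, and did not pass (adjusted p = 0.94). Aldh1a2, which makes retinoic acid, had 9.22 and 6.11 CPM in CFAE+8 and 6.75 and 6.96 CPM in MEF, where the groups overlapped, and did not pass (adjusted p = 0.48). Among the 9 receptors and coregulators tested, 5 rose and 4 fell. Rarb (exon overlap 38.4%), whose window also held the DR5 element, rose to 56.8 and 46.6 CPM in CFAE+8, against 0.19 and 1.01 CPM in MEF (log2 change 6.39 ± 0.22, adjusted p = 1.4e-20). Rarg rose to 255 and 246 CPM in CFAE+8, against 147 and 153 CPM in MEF (log2 change 0.74 ± 0.053). Rxra, the partner of retinoic acid receptors, fell to 83.7 and 81.6 CPM in CFAE+8, against 115 and 121 CPM in MEF (log2 change -0.52 ± 0.062). Of the coregulators, the coactivator Ncoa1 rose to 87.8 and 82.9 CPM in CFAE+8, against 30.98 and 29.1 CPM in MEF (log2 change 1.51 ± 0.079).

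Genes that handle cyclic AMP changed in both directions. Of 17 tested phosphodiesterases, which break down cyclic nucleotides, 7 rose, 4 fell and 6 did not pass. Pde11a rose to 16.8 and 18.2 CPM in CFAE+8, against 0.285 and 0.641 CPM in MEF (log2 change 5.20 ± 0.30, adjusted p = 1.8e-15). Pde7b, specific for cyclic AMP, rose to 47.7 and 46.6 CPM in CFAE+8, against 10.8 and 12.4 CPM in MEF (log2 change 2.02 ± 0.10). Pde8b, also specific for cyclic AMP, fell to 7.17 and 6.19 CPM in CFAE+8, against 28.7 and 30.1 CPM in MEF (log2 change -2.14 ± 0.14). So enzymes of like specificity moved apart. Of 19 tested protein kinase A subunits, anchors and cyclic AMP effectors, 6 rose and 8 fell. The count of rises lay near the share of all tested genes, 30.8%. Rapgef4 (EPAC2), an exchange factor that cyclic AMP activates, rose to 41.1 and 40.03 CPM in CFAE+8, against 0.475 and 0.0916 CPM in MEF (log2 change 7.12 ± 0.24, adjusted p = 4e-21). Rapgef3 (EPAC1), its relative, fell to 5.46 and 6.62 CPM in CFAE+8, against 26.04 and 26.8 CPM in MEF (log2 change -2.13 ± 0.17). Akap12, which anchors protein kinase A, fell to 53.3 and 51.5 CPM in CFAE+8, against 576 and 621 CPM in MEF (log2 change -3.51 ± 0.059, adjusted p = 1.8e-28). The fall of Akap12 was the largest in CPM of those named. Pkia, an inhibitor of the kinase, fell to 1.28 and 1.53 CPM in CFAE+8, against 17.2 and 12.4 CPM in MEF (log2 change -3.38 ± 0.27). The catalytic subunit Prkacb had 107 and 103 CPM in CFAE+8 and 104 and 99.02 CPM in MEF, where the groups overlapped, and did not pass.

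The CREB targets did not move in 1 direction: 10 of the 25 tested members rose and 10 fell, 7 and 6 of them by log2 1 or more, with a median log2 change of -0.01. Sst, somatostatin, whose promoter window above holds the response element, had 2.65 and 1.36 CPM in CFAE+8, against 0 and 0 CPM in MEF, at least 14.3-fold higher in CFAE+8. Areg, a ligand of the EGF receptor, rose to 9.304 and 9.07 CPM in CFAE+8, against 0.76 and 1.19 CPM in MEF (log2 change 3.22 ± 0.26, adjusted p = 8.2e-12). Crem, itself a cyclic AMP-responsive regulator, rose to 33.9 and 36.5 CPM in CFAE+8, against 12.5 and 11.9 CPM in MEF (log2 change 1.53 ± 0.12). All of these were low to moderate in level. Bdnf (exon overlap 14.4%), a neurotrophin, fell to 21.3 and 19.1 CPM in CFAE+8, against 72.7 and 74.3 CPM in MEF (log2 change -1.87 ± 0.099, adjusted p = 3.5e-16). Per2, a clock gene, rose to 12.9 and 10.3 CPM in CFAE+8, against 2.47 and 4.397 CPM in MEF (log2 change 1.75 ± 0.22). Sik2 (exon overlap 15%), a kinase of CREB coactivators, had 23.3 and 25.4 CPM in CFAE+8 and 22.1 and 24 CPM in MEF, where the groups overlapped, and did not pass.

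The ligands of the TGF-β family moved apart. Of 15 tested TGF-β ligands, activin subunits and latency proteins, 7 rose and 8 fell. Tgfb2 rose to 247 and 238 CPM in CFAE+8, against 72.1 and 76.9 CPM in MEF (log2 change 1.70 ± 0.054, adjusted p = 1.5e-21). Tgfb3 (exon overlap 12.4%), a further TGF-β isoform, fell to 50.8 and 56.1 CPM in CFAE+8, against 233 and 232 CPM in MEF (log2 change -2.12 ± 0.063, adjusted p = 2.1e-22). Inhbb, an activin subunit, rose to 998 and 1016 CPM in CFAE+8, against 209 and 215 CPM in MEF (log2 change 2.25 ± 0.044, adjusted p = 8.1e-27). Of these 3 genes, Inhbb had the highest CPM in CFAE+8. Fst, follistatin, which traps activin, fell to 46.5 and 50.1 CPM in CFAE+8, against 186 and 185 CPM in MEF (log2 change -1.94 ± 0.065). Ltbp2, of the latent TGF-β binding protein family, fell to 106 and 104 CPM in CFAE+8, against 525 and 547 CPM in MEF (log2 change -2.36 ± 0.053). Among receptors and SMADs, 2 of the 18 tested members rose, 13 fell and 3 did not pass, with a median log2 change of -0.48, and 1 member rose when CFAE+8 library 1, MEF library 1 or MEF library 2 was left out. Tgfbr2, the type II receptor, fell to 244 and 239.8 CPM in CFAE+8, against 514 and 514 CPM in MEF (log2 change -1.09 ± 0.046). Acvr2a, an activin receptor, fell to 11.3 and 13.7 CPM in CFAE+8, against 42.3 and 51.4 CPM in MEF (log2 change -1.90 ± 0.13). Smad3, which carries the signal to the nucleus, had 95.9 and 94.1 CPM in CFAE+8 and 88.4 and 94.5 CPM in MEF, where the groups overlapped, and did not pass.

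Several BMP ligands rose, and several antagonists fell. In the list of ligands, receptors and antagonists, 11 of the 30 tested members rose and 14 fell, 6 and 10 of them by log2 1 or more, with a median log2 change of -0.14. Bmp2 (ENSMUSG00000027358, chr2:133552159-133562885) rose to 287 and 277 CPM in CFAE+8, against 5.32 and 5.95 CPM in MEF (log2 change 5.64 ± 0.090, adjusted p = 4.9e-29). Bmp7 rose to 81.1 and 77.9 CPM in CFAE+8, against 1.901 and 1.56 CPM in MEF (log2 change 5.52 ± 0.13, adjusted p = 7e-25). Bmp6 rose to 21.9 and 22.98 CPM in CFAE+8, against 2.66 and 3.94 CPM in MEF (log2 change 2.76 ± 0.18). Another ligand was lower. Gdf6, a ligand of joint development, fell to 2.13 and 1.53 CPM in CFAE+8, against 15.1 and 14.2 CPM in MEF (log2 change -2.99 ± 0.24). Of the antagonists, Grem1, gremlin, fell to 68.5 and 76.4 CPM in CFAE+8, against 582 and 593 CPM in MEF (log2 change -3.02 ± 0.058, adjusted p = 3.8e-27). Bmper, which binds BMPs, fell to 4.35 and 2.88 CPM in CFAE+8, against 34.5 and 37.9 CPM in MEF (log2 change -3.32 ± 0.18). The groups did not overlap for any of these genes, which were named for the size of their called changes. The share of all tested genes without overlap is not given here, so this separation does not describe the list. Id1, a direct target of BMP signalling, rose to 413 and 414 CPM in CFAE+8, against 76.03 and 73 CPM in MEF (log2 change 2.47 ± 0.054, adjusted p = 1.1e-25). The receptor Bmpr1b fell to 2.99 and 1.44 CPM in CFAE+8, against 14.5 and 16.03 CPM in MEF (log2 change -2.78 ± 0.27). Bmpr2, the type II receptor, had 141 and 142 CPM in CFAE+8 and 147 and 155 CPM in MEF and did not pass.

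Most TGF-β targets fell: 4 of the 29 tested members rose and 23 fell, 2 and 20 of them by log2 1 or more, and the median log2 change was -1.91. Postn (ENSMUSG00000027750, chr3:54361109-54391037), periostin, fell to 31.2 and 33.3 CPM in CFAE+8, against 354 and 351 CPM in MEF (log2 change -3.45 ± 0.059, adjusted p = 3.3e-28). Itga11, a collagen-binding integrin subunit, fell to 13.7 and 13.99 CPM in CFAE+8, against 155 and 144 CPM in MEF (log2 change -3.43 ± 0.090). Both were lower by more than log2 3. Loxl2, a crosslinking enzyme, fell by less, to 312 and 315 CPM in CFAE+8, against 353 and 385 CPM in MEF (log2 change -0.23 ± 0.050). Col3a1, a fibrillar collagen chain, fell to 2181 and 2189 CPM in CFAE+8, against 2857 and 2889 CPM in MEF (log2 change -0.40 ± 0.034). Cdh2, N-cadherin, had 118 and 120.1 CPM in CFAE+8 and 107 and 119 CPM in MEF, where the groups overlapped, and did not pass.

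Smooth muscle contractile genes fell in all but 1 case. Of 19 tested members, 18 fell, 15 of them by log2 1 or more, and the median log2 change was -2.32. Lmod1, which nucleates actin filaments, fell to 1.45 and 2.46 CPM in CFAE+8, against 70.1 and 69.98 CPM in MEF (log2 change -5.15 ± 0.16, adjusted p = 1.1e-21). Des, the intermediate filament desmin, fell to 6.402 and 7.46 CPM in CFAE+8, against 71.2 and 67.4 CPM in MEF (log2 change -3.32 ± 0.12). Myl9, a myosin light chain whose promoter window above holds the CArG box, fell to 40.97 and 44.2 CPM in CFAE+8, against 314 and 307 CPM in MEF (log2 change -2.87 ± 0.060, adjusted p = 4.1e-26). The regulators of myosin that follow were named for their small changes. Mylk, the myosin light chain kinase, fell to 23.8 and 22.8 CPM in CFAE+8, against 37.1 and 35.4 CPM in MEF (log2 change -0.63 ± 0.096). Ppp1r12b, a myosin phosphatase subunit, fell to 24.2 and 24.9 CPM in CFAE+8, against 33.8 and 39.5 CPM in MEF (log2 change -0.58 ± 0.11). The 1 member that rose, Myocd, myocardin, a cofactor of SRF, named after its values were seen, had 3.67 and 3.31 CPM in CFAE+8, against 0.76 and 0.824 CPM in MEF (log2 change 2.12 ± 0.39).

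In the wider set of SRF, YAP and TEAD targets, 3 of the 31 tested members rose and 24 fell, 0 and 18 of them by log2 1 or more, with a median log2 change of -1.26. Ankrd1, a muscle ankyrin repeat protein whose promoter window above holds the TEAD letters at both positions, fell to 2.22 and 1.696 CPM in CFAE+8, against 55.7 and 53.8 CPM in MEF (log2 change -4.80 ± 0.16, adjusted p = 4.9e-21). F3, tissue factor, fell to 14.7 and 13.8 CPM in CFAE+8, against 281 and 276 CPM in MEF (log2 change -4.29 ± 0.080, adjusted p = 2e-27). Axl, a receptor tyrosine kinase, fell to 141 and 144 CPM in CFAE+8, against 872 and 914 CPM in MEF (log2 change -2.65 ± 0.049). Each CFAE+8 library was far below each MEF library for these genes, which were named for their large changes. Amotl2, an inhibitor of YAP, fell to 100.1 and 96.6 CPM in CFAE+8, against 733 and 738 CPM in MEF (log2 change -2.90 ± 0.052). Tead1, a partner of YAP, had 485 and 486 CPM in CFAE+8 and 457 and 467 CPM in MEF and did not pass (adjusted p = 0.2).

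**Figure D2:**
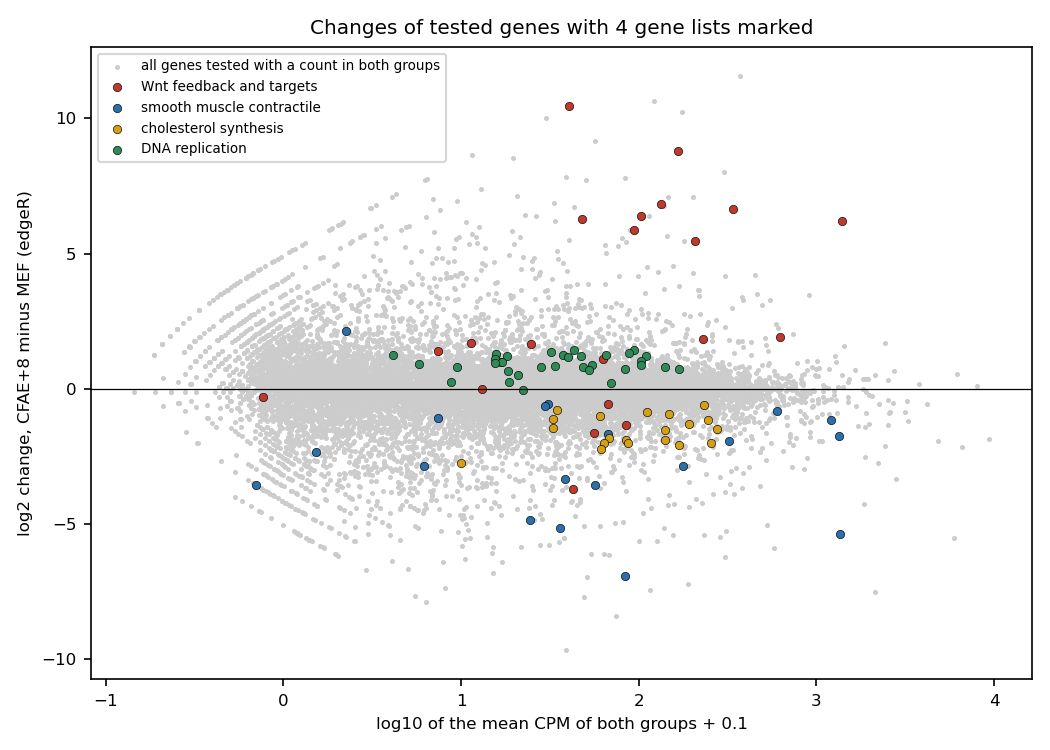
Log2 change (CFAE+8 minus MEF) against log10 of the mean CPM of both groups plus 0.1 for the 15310 tested genes with a count in both groups (grey), with 4 gene lists in colour. Wnt feedback genes reach far above 0, smooth muscle contractile genes reach down to -6.91 (Actg2), DNA replication genes lie mostly above 0 with Mcm3 at 1.43, and the cholesterol synthesis genes lie below 0.

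The matrix shifted in composition and did not fall uniformly. Of 38 tested collagen chains, 16 rose and 20 fell, 12 and 17 of them by log2 1 or more. Col26a1 rose to 169 and 165 CPM in CFAE+8, against 0.475 and 1.01 CPM in MEF (log2 change 7.78 ± 0.14, adjusted p = 1.8e-27). Col18a1, which carries endostatin, rose to 1650 and 1670 CPM in CFAE+8, against 141 and 155 CPM in MEF (log2 change 3.49 ± 0.047, adjusted p = 1.2e-30). Col8a1, a short-chain collagen of vessel walls, fell to 16.5 and 14.8 CPM in CFAE+8, against 577 and 632 CPM in MEF (log2 change -5.27 ± 0.076, adjusted p = 4.4e-30). The basement membrane chain Col4a5 fell with them, to 22.02 and 18.9 CPM in CFAE+8, against 202 and 209.7 CPM in MEF (log2 change -3.33 ± 0.082). The 2 chains with the highest CPM among rises and falls were chosen after their values were seen. Col6a1, of beaded microfibrils, rose to 3731 and 3737 CPM in CFAE+8, against 1119 and 1162 CPM in MEF (log2 change 1.71 ± 0.036). Col1a1, of fibrillar collagen I, fell to 4105 and 4011 CPM in CFAE+8, against 14460 and 15000 CPM in MEF (log2 change -1.86 ± 0.036). Per length, Col6a1 stood at 852 RPKM in CFAE+8, against 260 RPKM in MEF, and Col1a1 at 618 RPKM in CFAE+8, against 2244 RPKM in MEF. The order of these 2 chains was thus opposite in the 2 groups on this scale.

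**Figure D3:**
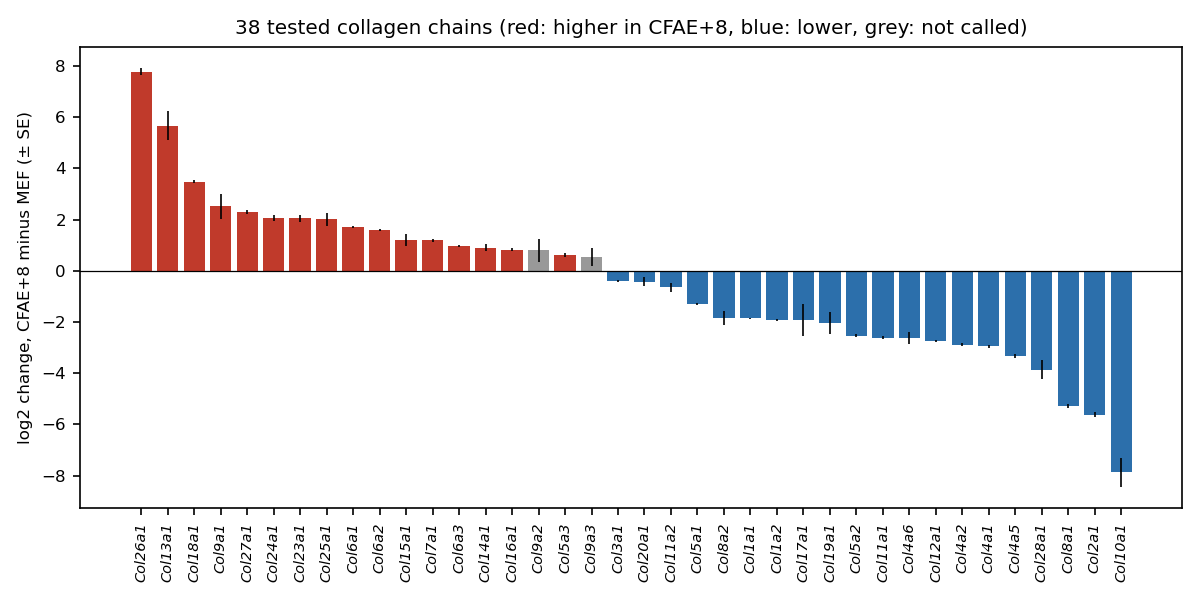
Log2 change (CFAE+8 minus MEF, bars, with the SE as error bars) of each of the 38 tested collagen chains in order of size. Red bars are chains that rose, blue ones fell and grey ones did not pass, and the chains run from Col26a1 at 7.78 to Col10a1, which had 1 count in CFAE+8.

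Enzymes that mature collagen mostly fell: 2 of the 24 tested members rose, 18 fell and 4 did not pass, with a median log2 change of -0.597. Loxl1, a crosslinking enzyme, fell to 152 and 156 CPM in CFAE+8, against 691 and 719 CPM in MEF (log2 change -2.19 ± 0.050, adjusted p = 3.4e-25). P4ha2, a prolyl hydroxylase subunit, fell to 29.8 and 30.4 CPM in CFAE+8, against 102 and 95.2 CPM in MEF (log2 change -1.71 ± 0.080). The 2 members that rose were propeptidases of the ADAMTS family. Adamts14 rose to 193 and 201 CPM in CFAE+8, against 29.6 and 27.3 CPM in MEF (log2 change 2.79 ± 0.070, adjusted p = 3.2e-24). Adamts3 rose to 11.3 and 12.1 CPM in CFAE+8, against 1.62 and 2.47 CPM in MEF (log2 change 2.51 ± 0.22). A further propeptidase of that family, Adamts2, had 141.5 and 142.7 CPM in CFAE+8 and 145.5 and 154.9 CPM in MEF and did not pass. Serpinh1 (HSP47), the collagen chaperone, had 1835 and 1832 CPM in CFAE+8 and 1802 and 1837 CPM in MEF, where the groups overlapped, and did not pass.

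In basement membranes, 2 of the 17 tested members rose and 11 fell, 1 and 8 of them by log2 1 or more. The laminin α chains went both ways. Lama1, the chain of early embryonic membranes, rose to 74.2 and 68.7 CPM in CFAE+8, against 7.89 and 9.98 CPM in MEF (log2 change 2.99 ± 0.11, adjusted p = 1.5e-20). Lama5 fell to 12.04 and 12.9 CPM in CFAE+8, against 208 and 216 CPM in MEF (log2 change -4.09 ± 0.089, adjusted p = 1.2e-25). Lama2 fell to 8.28 and 7.29 CPM in CFAE+8, against 61.01 and 55.9 CPM in MEF (log2 change -2.91 ± 0.13). Of 12 tested small leucine-rich proteoglycans, which coat collagen fibrils, 9 fell and 1 rose, and the median log2 change was -2.93. Fmod, fibromodulin, fell to 1.37 and 1.696 CPM in CFAE+8, against 111 and 101 CPM in MEF (log2 change -6.10 ± 0.16, adjusted p = 4.8e-24). Prelp fell to 0.341 and 0.594 CPM in CFAE+8, against 95.03 and 101 CPM in MEF (log2 change -7.68 ± 0.19, adjusted p = 1.5e-24). Ogn, osteoglycin, fell to 15.5 and 14.1 CPM in CFAE+8, against 121 and 131 CPM in MEF (log2 change -3.09 ± 0.11). The 1 member that rose changed little. Lum, lumican, rose to 90.7 and 94.1 CPM in CFAE+8, against 71.7 and 73.4 CPM in MEF (log2 change 0.35 ± 0.071).

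Of 18 elastic fibre genes, 13 fell and 5 rose. Fbln5 (ENSMUSG00000021186, chr12:101746565-101819055), which organises elastin, fell to 31.6 and 30.7 CPM in CFAE+8, against 1020 and 1025 CPM in MEF (log2 change -5.04 ± 0.063, adjusted p = 2e-31). Eln, elastin, fell to 14.9 and 13.7 CPM in CFAE+8, against 91.2 and 86.8 CPM in MEF (log2 change -2.63 ± 0.10). Emilin2, an elastin-associated glycoprotein, rose to 298 and 294 CPM in CFAE+8, against 70.2 and 74.1 CPM in MEF (log2 change 2.03 ± 0.055, adjusted p = 2.6e-23). Its relative moved the other way. Emilin1 fell to 219 and 247 CPM in CFAE+8, against 306 and 304 CPM in MEF (log2 change -0.39 ± 0.066). Matrix proteases and their inhibitors were split, with 10 of 28 higher and 12 lower. Mmp9, gelatinase B, rose to 29.96 and 27.5 CPM in CFAE+8, against 1.52 and 3.39 CPM in MEF (log2 change 3.53 ± 0.18). Adamts5, an aggrecanase, fell to 8.96 and 6.45 CPM in CFAE+8, against 259 and 280.3 CPM in MEF (log2 change -5.13 ± 0.11, adjusted p = 5.6e-26). Timp3 (exon overlap 21.3%), a metalloprotease inhibitor, fell to 44.7 and 41.9 CPM in CFAE+8, against 624 and 656 CPM in MEF (log2 change -3.88 ± 0.066). A protease and an inhibitor were therefore both among the large falls. Mmp2, gelatinase A, had 634 and 632 CPM in CFAE+8 and 595 and 612 CPM in MEF and did not pass (adjusted p = 0.15). Of 20 integrin genes, 12 fell and 4 rose. Itga4, a subunit that binds fibronectin and VCAM1, rose to 125 and 126 CPM in CFAE+8, against 34.3 and 31.8 CPM in MEF (log2 change 1.93 ± 0.077). Itga7, a laminin receptor subunit of muscle, fell to 7.08 and 7.72 CPM in CFAE+8, against 60.6 and 53.3 CPM in MEF (log2 change -2.94 ± 0.13).

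**Figure D4:**
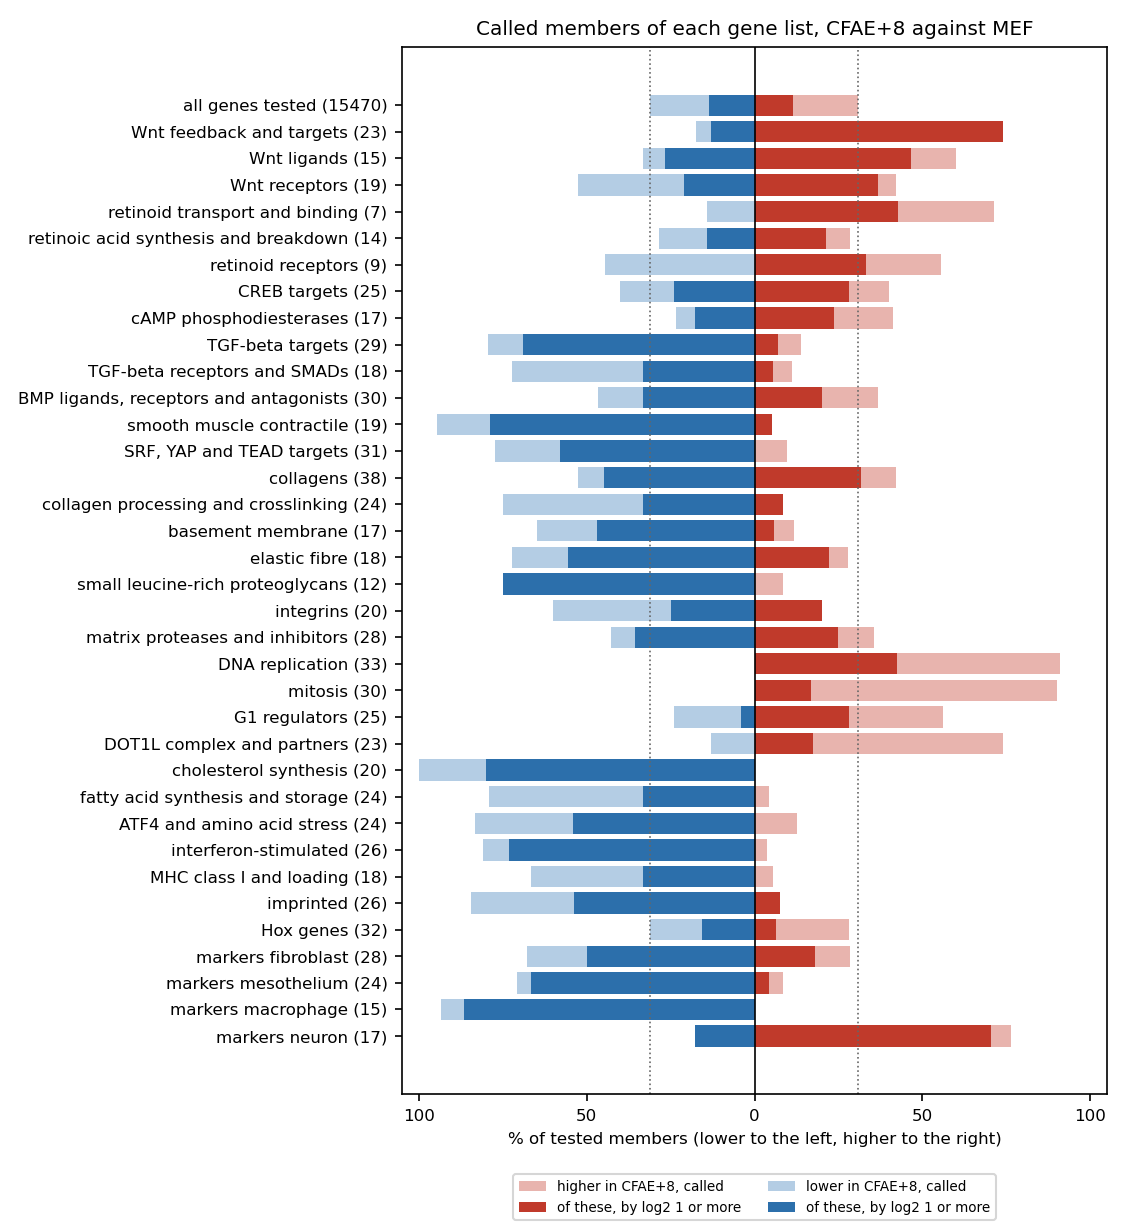
Percent of the tested members of each gene list (number in brackets) that were higher in CFAE+8 (red, to the right) or lower (blue, to the left), with members that changed by log2 1 or more in the darker colour and dotted lines at the shares of all tested genes. DNA replication and mitosis have no member to the left, and cholesterol synthesis has none to the right.

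Growth factor axes other than those the compounds act on also changed. Of 16 tested genes of the IGF axis, 11 fell and 4 rose. Igfbp5, an IGF-binding protein, fell to 75.1 and 74.3 CPM in CFAE+8, against 870.3 and 915 CPM in MEF (log2 change -3.58 ± 0.056, adjusted p = 3.4e-29). Igfbp7 fell to 62.7 and 67.2 CPM in CFAE+8, against 392 and 406 CPM in MEF (log2 change -2.62 ± 0.059). Igfbp3, the main serum carrier of IGF, rose to 1187 and 1178 CPM in CFAE+8, against 284 and 289.7 CPM in MEF (log2 change 2.04 ± 0.039, adjusted p = 4.4e-27). The binding proteins thus changed in both directions. Htra1, a protease that cleaves IGF-binding proteins, rose to 872 and 896 CPM in CFAE+8, against 102 and 102 CPM in MEF (log2 change 3.11 ± 0.049, adjusted p = 4.5e-29). Pappa, another such protease, fell to 17.9 and 21.3 CPM in CFAE+8, against 98.7 and 102 CPM in MEF (log2 change -2.36 ± 0.094). Of 26 FGF, EGF and ERK feedback genes, 16 rose and 7 fell. Etv4, a PEA3 factor and target of ERK signalling, rose to 148 and 149 CPM in CFAE+8, against 20.4 and 22.99 CPM in MEF (log2 change 2.78 ± 0.077, adjusted p = 4.3e-23). Etv5, of the same family, rose to 312 and 316 CPM in CFAE+8, against 46.95 and 46.1 CPM in MEF (log2 change 2.75 ± 0.058). Fgf7, a ligand that mesenchyme sends to epithelium, fell to 2.31 and 2.63 CPM in CFAE+8, against 50.6 and 48.2 CPM in MEF (log2 change -4.32 ± 0.17, adjusted p = 4.5e-19). Spry1 (exon overlap 24.4%), an ERK feedback gene, fell to 11.9 and 9.92 CPM in CFAE+8, against 75.8 and 82.5 CPM in MEF (log2 change -2.86 ± 0.10, adjusted p = 2.9e-20). So the PEA3 factors rose while Fgf7 and this feedback gene fell. Other feedback genes, named after their values were seen, went both ways. Spry2 fell too (log2 change -0.90 ± 0.075). Spred1 (1.35 ± 0.054), Spry4 (0.86 ± 0.066) and Spred2 (0.86 ± 0.066) rose. Spred3 (0.42 ± 0.070), Dusp4 (0.37 ± 0.064) and Dusp5 (exon overlap 22.1%, 0.33 ± 0.083) rose by less. Dusp6, an ERK phosphatase, had 101 and 104 CPM in CFAE+8 and 100.1 and 98.5 CPM in MEF and did not pass.

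Of 15 tested Hedgehog genes, 8 rose and 4 fell. Gli1, the standard readout of the pathway, rose to 9.99 and 11.5 CPM in CFAE+8, against 0.38 and 0.733 CPM in MEF (log2 change 4.24 ± 0.31, adjusted p = 8.1e-13). Ptch1, receptor and target, rose to 70.4 and 75.2 CPM in CFAE+8, against 17.1 and 21.2 CPM in MEF (log2 change 1.93 ± 0.092). Hhip, an antagonist and target, rose to 22.5 and 25.1 CPM in CFAE+8, against 6.46 and 7.88 CPM in MEF (log2 change 1.73 ± 0.14). These 3 pathway targets moved in 1 direction. The coreceptor Boc fell to 47.03 and 43.8 CPM in CFAE+8, against 83.4 and 83.9 CPM in MEF (log2 change -0.88 ± 0.085). Of 15 tested Notch genes, 9 rose and 2 fell. Hey1, a target, rose to 13.7 and 9.16 CPM in CFAE+8, against 0.285 and 0.366 CPM in MEF (log2 change 5.09 ± 0.35). Hes1, another target, fell to 9.56 and 12.6 CPM in CFAE+8, against 83.3 and 79.3 CPM in MEF (log2 change -2.87 ± 0.11, adjusted p = 1.5e-19). The 2 targets therefore moved in opposite directions. The ligand Jag1 fell to 11.4 and 12.6 CPM in CFAE+8, against 62.5 and 65.5 CPM in MEF (log2 change -2.41 ± 0.10). The receptor Notch3 rose to 186 and 185 CPM in CFAE+8, against 94.7 and 99.2 CPM in MEF (log2 change 0.93 ± 0.059).

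Of 22 genes of the endothelin, VEGF and PDGF axes, 14 fell and 6 rose. Angptl4, an inhibitor of lipoprotein lipase, rose to 243 and 245 CPM in CFAE+8, against 11.3 and 13.1 CPM in MEF (log2 change 4.32 ± 0.076, adjusted p = 5.7e-28). Flt1, a VEGF receptor, fell to 10.3 and 10.3 CPM in CFAE+8, against 109.7 and 123 CPM in MEF (log2 change -3.49 ± 0.10, adjusted p = 2.5e-22). Vegfa, a ligand of Flt1, rose to 187 and 188 CPM in CFAE+8, against 95.5 and 94.3 CPM in MEF (log2 change 0.98 ± 0.056). Flt1 and Vegfa thus moved in opposite directions. Vegfd, a ligand of lymphatic vessels, fell to 8.28 and 7.55 CPM in CFAE+8, against 59.9 and 59.2 CPM in MEF (log2 change -2.91 ± 0.14). Ednrb, the endothelin B receptor, fell to 2.82 and 1.696 CPM in CFAE+8, against 23 and 27.2 CPM in MEF (log2 change -3.47 ± 0.20). Pdgfra, a PDGF receptor, rose by less, to 431 and 447 CPM in CFAE+8, against 362 and 359.6 CPM in MEF (log2 change 0.28 ± 0.044). Of 42 axon guidance genes, 18 rose and 22 fell. Sema5a, a semaphorin, rose to 848 and 857 CPM in CFAE+8, against 71.9 and 77.2 CPM in MEF (log2 change 3.51 ± 0.053, adjusted p = 1.3e-29). Plxna4, a semaphorin receptor, rose to 100.5 and 90.4 CPM in CFAE+8, against 12.6 and 11.5 CPM in MEF (log2 change 2.98 ± 0.089). Unc5c, a netrin receptor, fell to 3.76 and 2.54 CPM in CFAE+8, against 64.7 and 58.7 CPM in MEF (log2 change -4.29 ± 0.15, adjusted p = 2.2e-20). Ligands and receptors of this list did not share a direction. Of 34 potassium, calcium and cation channel genes, 9 rose and 12 fell, near the shares of all tested genes, 30.8% higher and 31.3% lower. Trpc6, a cation channel, rose to 15.7 and 12.98 CPM in CFAE+8, against 0.475 and 0.275 CPM in MEF (log2 change 5.22 ± 0.30, adjusted p = 1.4e-15). Kcnj15, a potassium channel, had 0.0854 and 0.0848 CPM in CFAE+8, against 14.9 and 16.9 CPM in MEF, with 2 counts in CFAE+8, and the ratio of MEF to CFAE+8 counts was 187 (95% counting interval 51.4 to 1550). Piezo2, a mechanosensitive channel, rose to 55.8 and 51.99 CPM in CFAE+8, against 14.2 and 14.8 CPM in MEF (log2 change 1.89 ± 0.094).

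Transcription factors of limb and mesenchyme changed in both directions. Of 32 tested Hox genes, 9 rose and 10 fell, 2 and 5 of them by log2 1 or more, and 13 did not pass. The counts of rises and falls lay near the shares of all tested genes, 30.8% higher and 31.3% lower. Hoxc5 rose to 78.8 and 83.97 CPM in CFAE+8, against 20.8 and 22.4 CPM in MEF (log2 change 1.91 ± 0.084, adjusted p = 4e-18). Hoxa7 (exon overlap 20.4%) fell to 10.4 and 13.9 CPM in CFAE+8, against 36.8 and 36 CPM in MEF (log2 change -1.58 ± 0.14, adjusted p = 2.6e-11). Of 38 other homeobox genes, 14 rose and 18 fell, and neighbours of 1 cluster moved together. Irx3 rose to 222 and 216 CPM in CFAE+8, against 49.4 and 50.4 CPM in MEF (log2 change 2.13 ± 0.067, adjusted p = 8.8e-22). Irx5, its neighbour, rose to 142 and 142 CPM in CFAE+8, against 29.6 and 28.6 CPM in MEF (log2 change 2.29 ± 0.073). Lhx9, a LIM-homeobox factor, fell to 1.54 and 1.53 CPM in CFAE+8, against 17.6 and 18.7 CPM in MEF (log2 change -3.56 ± 0.22, adjusted p = 1.7e-14). Of 17 T-box and limb factors, 5 rose and 7 fell, with the rises near the 30.8% of all tested genes. Tbx2 (ENSMUSG00000000093, chr11:85832551-85841948), a repressor in limb and heart, rose to 267 and 248 CPM in CFAE+8, against 20.1 and 19.2 CPM in MEF (log2 change 3.71 ± 0.069, adjusted p = 1.7e-27). Osr1, a marker of lateral and intermediate mesoderm, fell to 1.54 and 1.19 CPM in CFAE+8, against 66.8 and 72.5 CPM in MEF (log2 change -5.67 ± 0.17, adjusted p = 2.9e-22). Tbx15, a limb factor, fell to 26.8 and 30.4 CPM in CFAE+8, against 108 and 109 CPM in MEF (log2 change -1.92 ± 0.087).

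All 28 tested mesenchymal factors passed the test, 11 higher and 17 lower. Foxl2, a forkhead factor of ovary and craniofacial mesenchyme, rose to 18.5 and 19.6 CPM in CFAE+8, against 0.665 and 1.28 CPM in MEF (log2 change 4.27 ± 0.23, adjusted p = 3.6e-16). Klf4, a zinc finger factor, fell to 8.71 and 14.2 CPM in CFAE+8, against 154 and 161 CPM in MEF (log2 change -3.78 ± 0.11, adjusted p = 2e-22). Ebf1, a factor of B cells and mesenchymal precursors, fell to 3.33 and 3.99 CPM in CFAE+8, against 41.05 and 36.5 CPM in MEF (log2 change -3.40 ± 0.18). The broad mesenchymal factors that follow were named for their small changes, so this difference in size follows from the naming. Prrx1, a limb mesenchyme marker, fell to 465 and 479.5 CPM in CFAE+8, against 582 and 583 CPM in MEF (log2 change -0.30 ± 0.044). Zeb1 fell to 75.1 and 86.5 CPM in CFAE+8, against 108 and 103 CPM in MEF (log2 change -0.38 ± 0.068). Snai2 rose to 79.6 and 84.98 CPM in CFAE+8, against 65.8 and 58.4 CPM in MEF (log2 change 0.41 ± 0.072).

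In the list of DOT1L complex members and chromatin enzymes, 17 of the 23 tested members rose, 3 fell and 3 did not pass, with a median log2 change of 0.56. Mllt3 (AF9), a DOT1L partner, rose to 84.8 and 92.96 CPM in CFAE+8, against 29.9 and 32.5 CPM in MEF (log2 change 1.51 ± 0.074, adjusted p = 6.5e-17). Ezh2, the H3K27 methyltransferase, rose to 79.8 and 84.8 CPM in CFAE+8, against 28.03 and 23.4 CPM in MEF (log2 change 1.68 ± 0.084, adjusted p = 8.5e-17). Tet1, which oxidises methylcytosine, rose to 13.7 and 10.7 CPM in CFAE+8, against 3.801 and 3.76 CPM in MEF (log2 change 1.68 ± 0.20). The rises in this list were moderate, with 4 of log2 1 or more. Ell, an elongation factor, had 52.6 and 56.8 CPM in CFAE+8 and 49.7 and 50.01 CPM in MEF and did not pass. Histone methylation was not measured.

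Cell cycle genes rose by moderate amounts. Of 33 DNA replication genes, 30 rose and 0 fell by edgeR, with a median log2 change of 0.93. Pcna, the sliding clamp, rose to 126 and 127 CPM in CFAE+8, against 47.3 and 52.7 CPM in MEF (log2 change 1.34 ± 0.068, adjusted p = 1.3e-16). Mcm5, a helicase subunit, rose to 90.8 and 92.96 CPM in CFAE+8, against 38.8 and 39.2 CPM in MEF (log2 change 1.24 ± 0.075). Prim2, a primase subunit, had 18.3 and 21.8 CPM in CFAE+8 and 17.8 and 16.2 CPM in MEF and did not pass. Of 30 mitotic genes, 27 rose and 0 fell, with a median of 0.73. In both lists 0 members were lower at an unadjusted p below 0.05, and DESeq2 called 0 lower. Cenpa, the centromeric histone, rose to 77.9 and 78.5 CPM in CFAE+8, against 30.9 and 31.6 CPM in MEF (log2 change 1.32 ± 0.077, adjusted p = 4e-15). Aurkb, a mitotic kinase, rose to 44.3 and 42.2 CPM in CFAE+8, against 20.3 and 18.4 CPM in MEF (log2 change 1.16 ± 0.099). Of 25 G1 regulators, 14 rose and 6 fell. Ccnd1 (exon overlap 23.4%), cyclin D1, rose to 997 and 988 CPM in CFAE+8, against 254 and 270.2 CPM in MEF (log2 change 1.92 ± 0.043, adjusted p = 2.4e-25). Cdkn2a, which encodes the inhibitors p16 and p19ARF, rose to 116 and 127 CPM in CFAE+8, against 40.4 and 40.4 CPM in MEF (log2 change 1.59 ± 0.068). Myc fell to 27.2 and 27.6 CPM in CFAE+8, against 83.2 and 84.8 CPM in MEF (log2 change -1.61 ± 0.079, adjusted p = 5.9e-17). Of 20 p53 targets, 6 rose and 8 fell, with the rises near the 30.8% of all tested genes. Perp fell to 21.9 and 20.4 CPM in CFAE+8, against 103 and 103 CPM in MEF (log2 change -2.29 ± 0.086, adjusted p = 7.4e-20). Gadd45a (exon overlap 19.1%), a DNA damage gene, rose to 50.1 and 54.7 CPM in CFAE+8, against 23.9 and 20.1 CPM in MEF (log2 change 1.25 ± 0.11).

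Genes of lipid synthesis fell. All 20 tested cholesterol synthesis genes fell, 16 of them by log2 1 or more, with a median log2 change of -1.504, and 0 were higher by edgeR at an unadjusted p below 0.05 or by DESeq2. Idi1, isopentenyl diphosphate isomerase, fell to 18.9 and 24.2 CPM in CFAE+8, against 101 and 98.8 CPM in MEF (log2 change -2.21 ± 0.093, adjusted p = 1.3e-18). Hmgcs1 (exon overlap 12.1%), whose promoter window with the sterol element is printed above, fell to 157 and 149 CPM in CFAE+8, against 344 and 329 CPM in MEF (log2 change -1.14 ± 0.052). Of 20 genes of cholesterol uptake, export and control, 17 fell and 3 rose (1 without CFAE+8 library 2 or without MEF library 1). Insig1, which retains SREBP in the endoplasmic reticulum, fell to 67.4 and 61.8 CPM in CFAE+8, against 179.5 and 172 CPM in MEF (log2 change -1.44 ± 0.064, adjusted p = 4e-18). Abca1, a cholesterol exporter, fell to 32.6 and 32.1 CPM in CFAE+8, against 62.2 and 69.1 CPM in MEF (log2 change -1.02 ± 0.083). A gene of control and a gene of export were thus both lower. Of 24 fatty acid genes, 19 fell and 1 rose. Scd1, a desaturase, fell to 172 and 172 CPM in CFAE+8, against 625 and 635 CPM in MEF (log2 change -1.88 ± 0.047, adjusted p = 4.3e-24). Acly, which makes acetyl-CoA from citrate, fell to 337 and 339.9 CPM in CFAE+8, against 727 and 766 CPM in MEF (log2 change -1.14 ± 0.045).

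Of 27 glycolysis and hypoxia genes, 17 fell and 6 rose. Hk2, a hexokinase, rose to 177 and 174 CPM in CFAE+8, against 54.6 and 57.1 CPM in MEF (log2 change 1.65 ± 0.068, adjusted p = 6.8e-19). Slc2a1, a glucose transporter, fell to 56.8 and 47.3 CPM in CFAE+8, against 126 and 121 CPM in MEF (log2 change -1.25 ± 0.076, adjusted p = 1.2e-14). Of 13 mitochondrially encoded genes, 10 rose and 0 fell by edgeR, with 0 lower at an unadjusted p below 0.05 and 0 by DESeq2. The largest of these rises was that of mt-Nd4l, a complex I subunit, to 5.72 and 7.04 CPM in CFAE+8, against 3.04 and 2.11 CPM in MEF (log2 change 1.31 ± 0.25). Another complex I subunit gene, mt-Nd2, rose to 1444 and 1495 CPM in CFAE+8, against 885 and 859 CPM in MEF (log2 change 0.75 ± 0.040). The cytochrome b gene mt-Cytb rose to 3313 and 3343 CPM in CFAE+8, against 2132 and 2080 CPM in MEF (log2 change 0.66 ± 0.034). Of 37 nuclear respiratory chain genes, 16 rose, 6 fell and 15 did not pass, with a median log2 change of 0.14. Ppargc1a (PGC-1α), a regulator of mitochondrial genes, rose to 4.95 and 5.51 CPM in CFAE+8, against 1.24 and 1.74 CPM in MEF (log2 change 1.80 ± 0.31). Of 27 NRF2 and glutathione genes, 7 rose and 14 fell. Slc7a11, the cystine transporter, rose to 142 and 152 CPM in CFAE+8, against 8.17 and 8.06 CPM in MEF (log2 change 4.18 ± 0.10, adjusted p = 1.9e-24). Gclm, a subunit of the enzyme that starts glutathione synthesis, fell to 23.6 and 22.1 CPM in CFAE+8, against 39.1 and 44.1 CPM in MEF (log2 change -0.86 ± 0.10). Import and synthesis genes moved apart. Gpx1, a glutathione peroxidase, fell to 258 and 253 CPM in CFAE+8, against 473 and 451 CPM in MEF (log2 change -0.85 ± 0.049).

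Most amino acid stress genes under ATF4 fell: 3 of the 24 tested members rose and 20 fell, 0 and 13 of them by log2 1 or more, with a median log2 change of -1.06. Trib3, a pseudokinase of the stress response, fell to 2.56 and 2.71 CPM in CFAE+8, against 45.2 and 46.3 CPM in MEF (log2 change -4.11 ± 0.17, adjusted p = 6.5e-19). Chac1, which degrades glutathione, fell to 3.76 and 3.48 CPM in CFAE+8, against 29.4 and 25.6 CPM in MEF (log2 change -2.92 ± 0.22). Phgdh, the first enzyme of serine synthesis, fell to 63 and 62.7 CPM in CFAE+8, against 207 and 209.7 CPM in MEF (log2 change -1.73 ± 0.060, adjusted p = 1.2e-20). Stress regulators and biosynthetic enzymes were both among the falls. The transporter Slc7a1 fell to 33.5 and 38.6 CPM in CFAE+8, against 123 and 129 CPM in MEF (log2 change -1.81 ± 0.076). Slc3a2, the partner subunit of Slc7a11, rose by less, to 228 and 224 CPM in CFAE+8, against 186 and 192 CPM in MEF (log2 change 0.26 ± 0.050).

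Immune genes were mostly lower, and macrophage markers moved with them. Of 26 tested interferon-stimulated genes, 21 fell and 1 rose, with a median log2 change of -1.83. Irgm1, an interferon-induced GTPase, fell to 9.304 and 8.74 CPM in CFAE+8, against 36.5 and 39.6 CPM in MEF (log2 change -2.08 ± 0.14, adjusted p = 1.2e-13). Bst2, tetherin, fell to 6.15 and 4.24 CPM in CFAE+8, against 22.8 and 22.1 CPM in MEF (log2 change -2.11 ± 0.18). The 1 member that rose, Ifit2, changed by less, to 26.97 and 25.9 CPM in CFAE+8, against 20.8 and 21.2 CPM in MEF (log2 change 0.33 ± 0.11), and missed the threshold without CFAE+8 library 1 (adjusted p = 0.0663), MEF library 1 (0.061) or MEF library 2 (0.0505). Of 18 MHC class I and loading genes, 12 fell and 1 rose. B2m, β2-microglobulin, fell to 181 and 179.7 CPM in CFAE+8, against 339.9 and 314 CPM in MEF (log2 change -0.86 ± 0.061, adjusted p = 4e-13). H2-D1, a class I heavy chain, fell to 107 and 104 CPM in CFAE+8, against 229 and 218 CPM in MEF (log2 change -1.09 ± 0.060). Tap1, a subunit of the peptide transporter, rose to 39.95 and 35.7 CPM in CFAE+8, against 31.7 and 32.1 CPM in MEF (log2 change 0.24 ± 0.096), but missed the threshold without CFAE+8 library 1 (adjusted p = 0.252), MEF library 1 (0.0987) or MEF library 2 (0.0921). Tap2 (exon overlap 18.5%), its partner subunit, fell to 5.29 and 6.45 CPM in CFAE+8, against 20.7 and 17.2 CPM in MEF (log2 change -1.69 ± 0.19).

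Of 22 tested chemokines and cytokines, 13 fell and 3 rose. Cxcl14 (ENSMUSG00000021508, chr13:56288643-56296551), a chemokine of skin and stroma, fell to 12.2 and 12.7 CPM in CFAE+8, against 559 and 563 CPM in MEF (log2 change -5.49 ± 0.070, adjusted p = 2.7e-31). Cxcl12, which holds haematopoietic cells in stroma, fell to 20.8 and 24.6 CPM in CFAE+8, against 416 and 442 CPM in MEF (log2 change -4.24 ± 0.072, adjusted p = 2.5e-28). Csf1, the growth factor of macrophages, fell to 120.1 and 119.6 CPM in CFAE+8, against 373 and 382 CPM in MEF (log2 change -1.66 ± 0.055). These 3 stromal factors were abundant in both MEF libraries. Of 14 complement and acute phase genes, 7 fell and 5 rose. Serping1, the C1 inhibitor, fell to 4.35 and 5.51 CPM in CFAE+8, against 60.7 and 59.8 CPM in MEF (log2 change -3.61 ± 0.14, adjusted p = 4.1e-19). Of 15 tested macrophage markers, 14 fell and 0 rose by edgeR, with 0 higher at an unadjusted p below 0.05 and 0 by DESeq2. Their summed level was 47.5 and 48.1 CPM in CFAE+8, against 247 and 244 CPM in MEF, and of the 15 only C1qc had no count in a CFAE+8 library, with 6 counts in library 1 and 0 in library 2. The macrophage markers include Ctss, a lysosomal protease, which fell to 1.02 and 0.339 CPM in CFAE+8, against 22.1 and 16.8 CPM in MEF (log2 change -4.81 ± 0.32). The part of macrophages in the falls of the immune lists was not tested.

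Most imprinted genes fell: 2 of the 26 tested members rose and 22 fell, 2 and 14 of them by log2 1 or more, with a median log2 change of -1.02. Meg3, a maternally expressed non-coding RNA of the Dlk1-Dio3 domain, fell to 221 and 221 CPM in CFAE+8, against 1058 and 1087 CPM in MEF (log2 change -2.28 ± 0.046, adjusted p = 1.2e-26). Rian, of the same domain, fell to 110.3 and 115 CPM in CFAE+8, against 544 and 544 CPM in MEF (log2 change -2.27 ± 0.051). Mirg, of the same domain, fell to 5.63 and 6.53 CPM in CFAE+8, against 28.1 and 27.8 CPM in MEF (log2 change -2.20 ± 0.16). The 3 non-coding RNAs fell by nearly the same amount on the log2 scale. Impact, expressed from the paternal copy, fell to 81.8 and 83.7 CPM in CFAE+8, against 238 and 242 CPM in MEF (log2 change -1.54 ± 0.058). Mest (exon overlap 23.1%), also paternal, fell to 45.2 and 41.5 CPM in CFAE+8, against 193 and 188 CPM in MEF (log2 change -2.14 ± 0.065, adjusted p = 3.9e-22). Genes of maternal and of paternal expression were thus both among the falls, and the counts do not tell the copies apart. Nnat, neuronatin, rose to 163 and 149 CPM in CFAE+8, against 21.6 and 20.2 CPM in MEF (log2 change 2.90 ± 0.078, adjusted p = 2e-23). Slc38a4, an amino acid transporter, was the other member that rose, to 272 and 270.2 CPM in CFAE+8, against 86.4 and 87.3 CPM in MEF (log2 change 1.64 ± 0.054).

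Markers of particular cell types were counted to describe the cultures. Of 28 tested fibroblast markers, 19 fell and 8 rose, with a median log2 change of -0.95. Pdgfrb, a PDGF receptor of mesenchyme, fell to 107 and 110.2 CPM in CFAE+8, against 530.5 and 565 CPM in MEF (log2 change -2.33 ± 0.053, adjusted p = 3.5e-25). Cd248, endosialin, fell to 82.97 and 82.2 CPM in CFAE+8, against 369.5 and 386 CPM in MEF (log2 change -2.19 ± 0.061). Of 17 tested neuronal markers, 13 rose and 3 fell, with a median log2 change of 2.38, or 1.81 with genes absent from MEF at their bound. Their summed level was 1578 and 1624 CPM in CFAE+8, against 380.1 and 402 CPM in MEF. Most of the CFAE+8 sum came from Sox11, Cadps, Gap43 and Nrgn. Nefm (exon overlap 19.2%), a neurofilament subunit, rose to 69.9 and 80.5 CPM in CFAE+8, against 2.85 and 4.397 CPM in MEF (log2 change 4.37 ± 0.13). Gap43, a growth cone protein, rose to 306 and 312 CPM in CFAE+8, against 87.9 and 87.9 CPM in MEF (log2 change 1.81 ± 0.053). Map2, a dendritic microtubule protein, fell to 3.24 and 3.65 CPM in CFAE+8, against 15.9 and 18.04 CPM in MEF (log2 change -2.30 ± 0.20). Ncam1, a neural adhesion molecule, fell to 39.95 and 45.8 CPM in CFAE+8, against 186 and 194 CPM in MEF (log2 change -2.15 ± 0.070). The rises were not shared by all neuronal markers, and Rbfox3, the NeuN gene, had no count in any of the 4 libraries.

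Cartilage and bone markers split, with 3 of 11 higher and 7 lower. Sp7, osterix, a bone factor, rose to 47.6 and 51.8 CPM in CFAE+8, against 1.24 and 2.198 CPM in MEF (log2 change 4.84 ± 0.17, adjusted p = 7.1e-21). Ibsp, bone sialoprotein, rose to 20.6 and 21.03 CPM in CFAE+8, against 0.475 and 0.0916 CPM in MEF (log2 change 6.16 ± 0.28). Acan, the cartilage proteoglycan aggrecan, fell to 0.683 and 0.254 CPM in CFAE+8, against 11.3 and 11.9 CPM in MEF (log2 change -4.60 ± 0.35). Spp1 (exon overlap 18.8%), osteopontin, also a bone gene, fell. It had 377 and 402 CPM in CFAE+8, against 1005 and 960 CPM in MEF (log2 change -1.33 ± 0.046, adjusted p = 1.1e-20). Bone genes were thus among both the rises and the falls, and a cartilage gene was among the falls. All 6 tested adipocyte markers fell and 0 were higher by edgeR at an unadjusted p below 0.05 or by DESeq2, with a summed level of 16.5 and 17.6 CPM in CFAE+8, against 109.8 and 118 CPM in MEF. Adipoq, Retn, Lep and Cfd, markers of mature adipocytes, had no count in any of the 4 libraries. Of 13 skeletal muscle markers, 10 fell and 2 rose. Myh3, the embryonic myosin heavy chain, fell to 2.99 and 3.48 CPM in CFAE+8, against 21.4 and 16.9 CPM in MEF (log2 change -2.56 ± 0.19). Among the 10 endothelial markers, 5 rose and 3 fell. Esam, an adhesion molecule of endothelium, rose to 38.4 and 33.5 CPM in CFAE+8, against 1.14 and 1.19 CPM in MEF (log2 change 4.93 ± 0.18). Eng, endoglin, a TGF-β coreceptor of endothelium, fell to 36.2 and 30.4 CPM in CFAE+8, against 89.2 and 98.6 CPM in MEF (log2 change -1.495 ± 0.086). Of 12 extraembryonic endoderm markers, 6 rose and 3 fell. Sox7, a factor of endoderm and endothelium, rose to 41.1 and 41.9 CPM in CFAE+8, against 1.996 and 1.83 CPM in MEF (log2 change 4.43 ± 0.16, adjusted p = 2.1e-20). No red blood cell marker passed the filter on low counts.

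Against the other cocktails, fewer genes passed. Compared with the mean of CFAE+8+MSC and CFAE+6, 203 genes (1.31% of those tested) were higher by log2 1 or more and 728 (4.71%) were lower, and DESeq2's Wald test gave 130 higher. Contractile genes were among the 8 largest differences downward at 20 CPM or more in 1 of the cocktails. Acta2, smooth muscle actin, had 65.5 and 63.3 CPM in CFAE+8, 1278 and 1259 CPM in CFAE+8+MSC, 597 and 606 CPM in CFAE+6 and 2677 and 2651 CPM in MEF (log2 difference -3.76 ± 0.042, adjusted p = 1.2e-31). Lmod1 had 1.45 and 2.46 CPM in CFAE+8, 29.9 and 31.2 CPM in CFAE+8+MSC, 12.7 and 16.7 CPM in CFAE+6 and 70.1 and 69.98 CPM in MEF (log2 difference -3.43 ± 0.18, adjusted p = 2.4e-15). Both genes were lowest in the 2 CFAE+8 libraries and highest in MEF. Postn had 31.2 and 33.3 CPM in CFAE+8, 339 and 344 CPM in CFAE+8+MSC, 317 and 312 CPM in CFAE+6 and 354 and 351 CPM in MEF (log2 difference -3.34 ± 0.056, adjusted p = 3.3e-27). Here the other cocktails stood near the MEF level and the 2 CFAE+8 libraries stood apart. Vgf, a neurosecretory precursor protein, had 6.23 and 4.92 CPM in CFAE+8, 137 and 130.5 CPM in CFAE+8+MSC, 62.8 and 71.6 CPM in CFAE+6 and 7.13 and 7.603 CPM in MEF (log2 difference -4.09 ± 0.11, adjusted p = 1.8e-22). Calb1, a calcium-binding protein, had 1.02 and 0.763 CPM in CFAE+8, 15.8 and 15.9 CPM in CFAE+8+MSC, 23.7 and 27.1 CPM in CFAE+6 and 0 and 0 CPM in MEF (log2 difference -4.47 ± 0.22, adjusted p = 2e-15). Both Vgf and Calb1 were thus low in CFAE+8 and in MEF.

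At the same level, the 8 largest differences upward were smaller. Pak3, a p21-activated kinase, had 37.7 and 30.4 CPM in CFAE+8, 9.96 and 9.04 CPM in CFAE+8+MSC, 11.4 and 10.3 CPM in CFAE+6 and 52.6 and 50.5 CPM in MEF (log2 difference 1.75 ± 0.10, adjusted p = 6.5e-14). Il13ra1, a subunit of the IL-13 receptor, had 32.01 and 32.9 CPM in CFAE+8, 9.87 and 9.68 CPM in CFAE+8+MSC, 11.8 and 10.9 CPM in CFAE+6 and 41.6 and 38.3 CPM in MEF (log2 difference 1.62 ± 0.099, adjusted p = 9.2e-14). In both genes, CFAE+8 lay between the other cocktails and MEF. Egr1, an immediate early transcription factor, had 204 and 200.4 CPM in CFAE+8, 61.7 and 61.4 CPM in CFAE+8+MSC, 86.6 and 87.6 CPM in CFAE+6 and 357 and 360.5 CPM in MEF (log2 difference 1.47 ± 0.046, adjusted p = 1.6e-20). Ccl2, a chemokine that attracts monocytes, had 91.8 and 87.1 CPM in CFAE+8, 40.8 and 38.7 CPM in CFAE+8+MSC, 32.1 and 24.8 CPM in CFAE+6 and 121 and 117 CPM in MEF (log2 difference 1.41 ± 0.071, adjusted p = 1.1e-15). These genes too were below MEF and above the other cocktails in CFAE+8. Tmem173 (STING), a sensor of cyclic dinucleotides, had 53.8 and 49.3 CPM in CFAE+8, 18.4 and 18.4 CPM in CFAE+8+MSC, 21.7 and 20.97 CPM in CFAE+6 and 52.6 and 53.95 CPM in MEF (log2 difference 1.38 ± 0.079, adjusted p = 2e-14). Here the CFAE+8 libraries overlapped with MEF. Each difference is from the mean of both cocktails, and CFAE+8 was not tested against each of them alone.

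**Figure D5:**
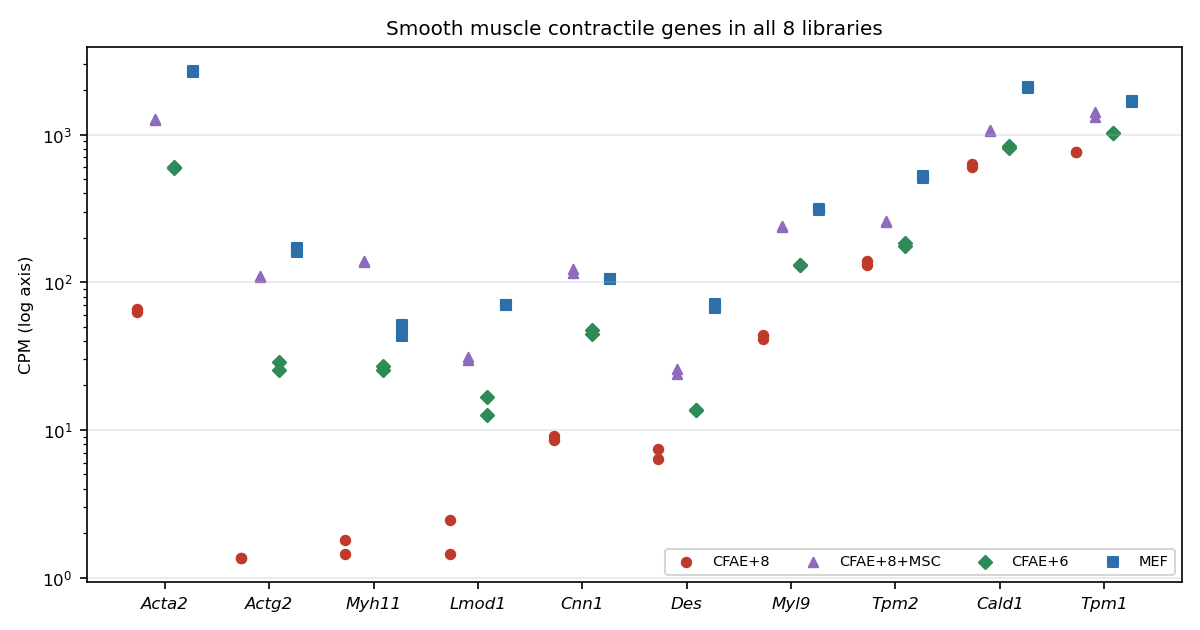
CPM on a log axis of 10 smooth muscle contractile genes in all 8 libraries, in the order CFAE+8 (red circles), CFAE+8+MSC (purple triangles), CFAE+6 (green diamonds) and MEF (blue squares), 1 point per library. For all 10 genes the 2 CFAE+8 libraries are the lowest, and for Acta2 they lie at 65.5 and 63.3 CPM.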

How the data were processed

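The data were a table of raw counts per gene, which the authors deposited for 8 RNA-seq libraries. Per the submitters' processing notes, featureCounts of the Subread package, DESeq2 and the mm10 genome were used, and neither the aligner nor any version was stated. Per the labels' protocols the kit was NEBNext Ultra RNA, a kit that does not mark strand. From these counts, genes were kept by edgeR's filterByExpr (15470 genes with 99.85% of the counts), scaled by TMM and fitted with edgeR 4.0.16 (R 4.3.3) in a quasi-likelihood model with 1 mean per group over all 8 libraries, with 2 libraries per group, 4 residual degrees of freedom and a biological coefficient of variation of 0.0445. The calls were tested on simulated data. Adjusted p-values are Benjamini-Hochberg over all tested genes, at 0.05. RPKM used the exon length given in the deposited table. Exon overlaps came from GENCODE M21, which held 54495 of the 54532 identifiers. The gene lists, the members shown and the tests were chosen with earlier results of these data known. Named genes were the largest changes among protein-coding genes with at least 20 CPM in 1 group, and in each list up to 8 of the largest called changes and up to 4 of the smallest at 5 CPM or more, or all members of lists of up to 12, and other named genes are said to be chosen after their values were seen or are given for a promoter window or a count of 0. Depths of 10958430 to 11913143 counts per library set the precision, and intervals and bounds cover counting error only. Some genes that met these rules are not reported here.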

Additional observations from a re-analysis of the deposited data

How the results depend on the processing

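The calls of CFAE+8 against MEF were recomputed under 12 alternatives: DESeq2's size factors, upper-quartile factors, DESeq2's Wald test, no filter, a mean of at least 1 CPM, a fit of the CFAE+8 and MEF libraries alone, a replicate block, a test against a 1.2-fold change, and each of the 4 libraries left out in turn. The counts of genes higher and lower lay between 3500 and 5080 and between 3746 and 4915, against 4762 and 4835 as reported, the lowest with the 1.2-fold test. Upper-quartile factors gave 5080 higher and 4596 lower and moved the median log2 change to 0.05. Leaving out a library gave 4154 to 4246 higher and 4400 to 4439 lower. Against the other cocktails, DESeq2's Wald test gave 130 genes higher by log2 1 or more, against 203; the cause was not tested. The replicate numbers did not pair the libraries: same-numbered libraries had correlations of their deviations between -0.02 and 0.05, and the replicate block gave 4747 higher and 4837 lower. Of 259 named genes that were recomputed, 2 changed sign, Aldh1a2 and Tmem173, neither of which had passed. With a library left out, the log2 change ran between -0.16 and 0.43 for Aldh1a2, the lowest without CFAE+8 replicate 1, and between -0.11 and 0.016 for Tmem173, the highest without CFAE+8 replicate 2. The 1.2-fold test, by its construction, kept fewer calls in lists of small changes, such as 3 higher and 0 lower of the nuclear respiratory chain. With 2 libraries per group, low-count genes carry the widest errors.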

Other observations

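Other properties of the genes gave values that belong in none of the comparisons above. Among transcription factor families named in the deposited table, 18 of 28 tested forkhead genes fell and 5 rose (median log2 change -0.87), whereas 174 of 464 tested C2H2 zinc finger genes rose and 66 fell (median 0.26). Of 40 HMG-box genes, 20 rose and 10 fell (median 0.46). Over all 1069 transcription factor genes tested, 407 rose and 268 fell, with a median of 0.16.

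The tested protein-coding genes were also divided by their span on the genome into 4 classes of nearly equal size. In the longest class, from 60986 bases upward, 15.3% of these genes were higher by log2 1 or more and 17.5% were lower. In the shortest class, up to 10506 bases, 10.2% were higher and 13.9% were lower. Long intergenic non-coding RNAs, with 296 tested, had 85 rises and 60 falls, and their summed level was 5046 CPM in CFAE+8, against 9588 CPM in MEF.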
